A study of Mus musculus with 6 samples.

Results

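The ketone body and medium-chain acyl-CoA synthetase genes are 8 genes of fuel and carboxylic acid handling, Oxct1, Acat1, Bdh1, Bdh2, Acsm1, Acsm2, Acsm3 and Abat, and they were taken by gene name from the 54532 genes of the count and FPKM tables. Each name matched 1 gene. Kidney RNA was sequenced from 3 WT mice and 3 Trpm2-/- mice, the latter numbered 1, 2 and 4, all of strain C57BL/6J and all treated with cisplatin at 18 mg/kg for 72 h, so that no kidney without cisplatin is among the groups. The labels give an age of 6 to 8 weeks, which is younger than the age in the methods. By the methods the mice were male, the WT mice came from a supplier and the Trpm2-/- line from a university, and the Trpm2-/- allele lacks exons of the transmembrane region in every cell, so that genotype and origin of the mice cannot be told apart.

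The libraries held between 14053307 and 17150089 counted reads, and 3 counts, taken as the lowest level that counting can show, were worth 0.175 to 0.213 CPM (counts scaled to a common library size). Reads of the mitochondrial genome made up 4.43 to 4.72% of the counts in WT kidneys and 7.91 to 11.0% in Trpm2-/- kidneys, and without the genes of that genome all 8 genes described here kept their direction and their call. Trpm2 itself had 5, 5 and 27 counts in the WT kidneys and 10, 16 and 20 in the Trpm2-/- kidneys. Its log2 fold change was 0.36 (SE 0.675, adjusted p = 0.776 in edgeR's quasi-likelihood test), and since a gene-level count includes the exons that the allele keeps, it does not check the genotype.

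Ketone bodies are small acids that the liver makes from fatty acids and that other organs oxidise in place of glucose. In a cell that uses them, β-hydroxybutyrate is oxidised to acetoacetate, acetoacetate receives a CoA group from succinyl-CoA, and the product is split into acetyl-CoA for the citric acid cycle. The kidney oxidises ketone bodies and fatty acids mainly in its tubules, and the proximal tubule takes up filtered short acids again. The Acsm enzymes of the mitochondrial matrix attach CoA to medium-chain fatty acids, to butyrate and to aromatic acids such as benzoate, which is the first step of their conjugation with glycine. Abat, the GABA transaminase, feeds the carbon of GABA towards succinate.

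Acsm1, Acsm2 and Acsm3 lie in a row on the plus strand of chromosome 7, with Acsm5 before Acsm2 and Acsm4 between Acsm1 and Acsm3. On GRCm38, Acsm2 covers chr7:119554340-119600690, Acsm1 follows after 6335 bases at chr7:119607026-119662515, and Acsm3 covers chr7:119760923-119787513. The stretches around their RefSeq start sites (build GRCm38.p6, 250 bases before to 50 after, plus strand, 5′ to 3′) are printed below. The reason is that neighbouring Acsm1 and Acsm2 had the most alike pattern across kidneys of all pairs among the 8 genes. That likeness, given further on, was taken after each gene was centred on its own mean, so it does not compare their levels. Capitals mark a match to AGGTCA (a nuclear receptor half-site), GTTAAT (an HNF1 half-site), CCAAT or TATAAA on either strand.
Acsm2 (chr7:119554090-119554389): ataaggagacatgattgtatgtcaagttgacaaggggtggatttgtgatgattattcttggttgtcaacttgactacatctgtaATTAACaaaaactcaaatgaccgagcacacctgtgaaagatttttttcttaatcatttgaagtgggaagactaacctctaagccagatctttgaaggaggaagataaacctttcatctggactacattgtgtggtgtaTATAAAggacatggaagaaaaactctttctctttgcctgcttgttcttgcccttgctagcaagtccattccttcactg
Acsm1 (chr7:119617562-119617861): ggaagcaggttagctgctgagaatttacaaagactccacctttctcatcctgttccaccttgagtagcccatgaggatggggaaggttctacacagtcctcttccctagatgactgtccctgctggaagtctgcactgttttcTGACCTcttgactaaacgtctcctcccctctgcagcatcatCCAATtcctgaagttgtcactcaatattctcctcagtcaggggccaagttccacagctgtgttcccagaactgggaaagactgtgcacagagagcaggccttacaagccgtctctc
Acsm3 (chr7:119760673-119760972): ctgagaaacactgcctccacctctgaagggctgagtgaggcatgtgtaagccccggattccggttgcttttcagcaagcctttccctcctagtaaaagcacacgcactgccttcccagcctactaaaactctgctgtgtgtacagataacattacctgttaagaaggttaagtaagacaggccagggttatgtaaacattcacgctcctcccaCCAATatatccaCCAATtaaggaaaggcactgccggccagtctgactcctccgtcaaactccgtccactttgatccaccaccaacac

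The Acsm2 stretch held TATAAA at -28 from the start site and GTTAAT on the minus strand at -166. The Acsm1 stretch held AGGTCA on the minus strand at -107 and CCAAT at -66, and the Acsm3 stretch held CCAAT at -37 and at -25. The RefSeq start of Acsm1 lies inside the span that the tables give for the gene. Of 32544 promoters of the same length, 16.25% held AGGTCA, 7.135% GTTAAT, 37.36% CCAAT and 13.57% TATAAA, so that each of these letters is common. G and C made up 38.33% of the Acsm2 stretch, 50.67% of that of Acsm1 and 50% of that of Acsm3, against a median of 53% over all promoters. The 3 stretches held 1, 2 and 7 CG pairs in that order, against a median of 7. RefSeq entries matched 6 of the 8 genes. A second Acsm2 start, the start of Oxct1 and both starts of Bdh1 held none of the 4 motifs, and Bdh2 held CCAAT on the minus strand at -141.

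All 8 genes were lower in Trpm2-/- kidneys, and for each of them the highest Trpm2-/- kidney was below the lowest WT kidney. Mean FPKM, a read count per gene length and library total made by the authors, was in Trpm2-/- kidneys between 28.3% (Bdh1) and 58.8% (Acsm2) of the WT mean. At an adjusted p under 0.05, 8 of 8 genes were lower, where 7.28% of the 15816 genes tested were lower and 4.74% higher. At the study's threshold, an absolute log2 fold change above 1 with p under 0.05, 6 of 8 were lower, where 4.10% of all genes were lower and 3.50% higher. Groups without overlap in CPM were common, with 16.8% of genes lower and 16.7% higher throughout. By edgeR 0 of the 8 genes rose, also at an unadjusted p under 0.05 (0 genes), and 0 rose by DESeq2. Their median log2 fold change was -1.40, beside 0.02 over all genes tested. These genes were chosen with results of these kidneys known, so that their shared direction is not independent evidence.

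**Figure D1:**
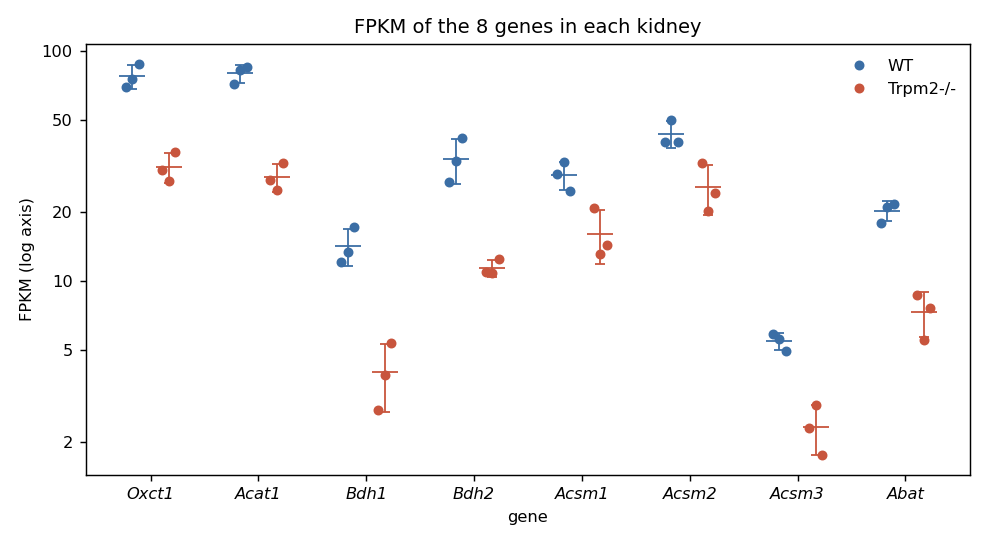
FPKM (log axis) of the 8 genes in each of 3 WT kidneys (blue) and 3 Trpm2-/- kidneys (red); points are kidneys, long ticks the group mean and bars ± 1 SD. No gene has a Trpm2-/- kidney at or above its lowest WT kidney, and the gap is narrowest for Acsm1 and Acsm2.

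Oxct1 encodes the mitochondrial transferase that loads acetoacetate with CoA, the committed step of ketone body use. The gene (ENSMUSG00000022186) lies at chr15:4026383-4155344 on the plus strand. Its FPKM was 69.6, 75.2 and 88.1 in the WT kidneys and 30.4, 27.2 and 36.2 in the Trpm2-/- kidneys. All Trpm2-/- kidneys were thus below the WT range, the highest at 52.1% of the lowest WT kidney. The means were 77.6 ± 9.48 (SD, n = 3) and 31.3 ± 4.56 (SD, n = 3), and Oxct1 fell by 1.32 on the log2 scale (SE 0.157, adjusted p = 0.00190).

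Acat1, the mitochondrial thiolase that splits acetoacetyl-CoA into acetyl-CoA, acts directly after Oxct1. The gene (ENSMUSG00000032047) lies at chr9:53580522-53610382 on the minus strand. FPKM was 71.8, 82.7 and 85.5 in WT kidneys and 27.4, 25.0 and 32.5 in Trpm2-/- kidneys. The WT kidneys lay close together and the highest Trpm2-/- kidney reached 45.3% of the lowest WT kidney. Means of 80.0 ± 7.22 and 28.3 ± 3.86 (SD, n = 3 each) gave a log2 fold change of -1.51 (SE 0.149, adjusted p = 0.00126), with the smallest p among the 8 genes. No exon of Acat1 overlaps another gene, and 0 of its 75-base transcript windows occur in another gene.

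Oxct1 and Acat1, the successive enzymes, had the highest mean FPKM of the 8 genes in both genotypes, although Acsm2 was above both in Trpm2-/- kidney 1, and their ranges overlapped in both genotypes. The Oxct1 to Acat1 FPKM ratio was 0.969, 0.909 and 1.03 in WT kidneys and 1.11, 1.09 and 1.11 in Trpm2-/- kidneys. The ratio was thus above the WT range in each Trpm2-/- kidney, with a mean difference of 0.19 on the log2 scale. The two-sided exact permutation test gave p = 0.1, the smallest that 3 against 3 kidneys allow (adjusted p = 0.4 over 4 pairs), so this design cannot tell that difference from the spread.

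Bdh1, the mitochondrial dehydrogenase that interconverts β-hydroxybutyrate and acetoacetate, had the largest change. The gene (ENSMUSG00000046598) lies at chr16:31422280-31458901 on the plus strand. FPKM was 12.1, 13.4 and 17.1 in the WT kidneys and 2.76, 3.91 and 5.39 in the Trpm2-/- kidneys. Trpm2-/- kidney 1 was lowest and kidney 4 highest, and even kidney 4 stayed at 44.6% of the lowest WT kidney. Means of 14.2 ± 2.63 and 4.02 ± 1.32 (SD, n = 3 each) gave a log2 fold change of -1.83 (SE 0.237, adjusted p = 0.00267), and 0.923% of all genes tested had a lower one.

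Bdh2 encodes a cytosolic dehydrogenase of the same broad class, for which β-hydroxybutyrate is one described substrate. The gene (ENSMUSG00000028167) lies at chr3:135281221-135304426 on the plus strand. FPKM was 26.9, 33.3 and 41.7 in WT kidneys and 10.9, 10.8 and 12.5 in Trpm2-/- kidneys. The spread was wide among WT kidneys, with a coefficient of variation of 21.9%, and narrow among Trpm2-/- kidneys, at 8.31%. Bdh2 fell by 1.59 on the log2 scale (SE 0.174, adjusted p = 0.00150), from a mean of 34.0 ± 7.45 to 11.4 ± 0.948 (SD, n = 3 each).

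The Bdh1 to Bdh2 FPKM ratio was 0.449, 0.403 and 0.411 in WT kidneys and 0.253, 0.363 and 0.432 in Trpm2-/- kidneys. The ranges overlapped, because Trpm2-/- kidney 4 lay among the WT kidneys. The mean log2 difference of -0.30 had p = 0.3 in the exact permutation test (adjusted p = 0.4), so a larger fall of Bdh1 than of Bdh2 was not shown.

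Abat, the mitochondrial GABA transaminase, behaved much like the ketone body enzymes. The gene (ENSMUSG00000057880) lies at chr16:8513429-8621568 on the plus strand, on the same chromosome as Bdh1. FPKM was 17.9, 21.1 and 21.6 in WT kidneys and 8.73, 5.56 and 7.65 in Trpm2-/- kidneys. The WT kidneys were close to each other and all Trpm2-/- kidneys lay at 48.6% of the lowest WT kidney or less. Means were 20.2 ± 1.98 and 7.32 ± 1.61 (SD, n = 3 each), and the log2 fold change was -1.48 (SE 0.177, adjusted p = 0.00191).

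The Acsm synthetases had log2 fold changes from -1.25 (Acsm3) to -0.78 (Acsm2). Ratios between them, given further on, did not show that they fell to different degrees. Acsm2, the most abundant of them, had FPKM of 40.1, 50.3 and 40.3 in WT kidneys and 32.6, 20.1 and 24.2 in Trpm2-/- kidneys (ENSMUSG00000030945). Acsm1 had 29.2, 32.8 and 24.7 in WT kidneys and 20.9, 13.1 and 14.3 in Trpm2-/- kidneys (ENSMUSG00000033533). For both genes WT kidney 2 was highest of all and Trpm2-/- kidney 1 came nearest to the WT range, at 81.3% of the lowest WT kidney for Acsm2 and 84.4% for Acsm1. Mean Acsm2 went from 43.6 ± 5.85 to 25.6 ± 6.36 (SD, n = 3 each), a log2 fold change of -0.78 (SE 0.193, adjusted p = 0.0312). Mean Acsm1 went from 28.9 ± 4.04 to 16.1 ± 4.19 (SD, n = 3 each), a log2 fold change of -0.86 (SE 0.192, adjusted p = 0.0210).

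The calls of Acsm1 and Acsm2 lay near the threshold, and each was lost when any of several kidneys was left out. For Acsm1 the adjusted p of edgeR's test was 0.0507 without WT kidney 1, 0.0923 without WT kidney 2 and 0.0581 without Trpm2-/- kidney 4. For Acsm2 it was 0.132 without WT kidney 2, 0.0838 without WT kidney 3, 0.0628 without Trpm2-/- kidney 2 and 0.0742 without Trpm2-/- kidney 4. The log2 fold change stayed below 0 throughout, between -1.09 and -0.73 for Acsm1 and between -0.99 and -0.63 for Acsm2. For the other 6 genes the largest adjusted p without any 1 kidney was 0.0254 (Acsm3).

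Acsm1 and Acsm2 kept nearly the same proportion in every kidney. The Acsm1 to Acsm2 FPKM ratio was 0.729, 0.651 and 0.613 in WT kidneys and 0.640, 0.651 and 0.590 in Trpm2-/- kidneys, with overlapping ranges, a mean log2 difference of -0.08 and p = 0.4 in the exact permutation test (adjusted p = 0.4). As a measure of likeness over the 6 kidneys, the log2 CPM of each gene was centred on its mean and the root mean square difference taken between genes. It was 0.0940 for Acsm1 with Acsm2, the smallest of all pairs among the 8 genes, 0.109 for Oxct1 with Acat1 and 0.127 for Bdh2 with Acat1. The largest, 0.717, was that of Bdh1 with Acsm1. The 6 kidneys share the genotype difference, so this likeness is a description only.

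Acsm3, further along the row, was the least abundant of the 8 genes (ENSMUSG00000030935). FPKM was 5.87, 5.58 and 4.96 in WT kidneys and 2.30, 2.90 and 1.76 in Trpm2-/- kidneys. Unlike its neighbours it was highest in kidney 2 among the Trpm2-/- kidneys. Means of 5.47 ± 0.465 and 2.32 ± 0.570 (SD, n = 3 each) gave a log2 fold change of -1.25 (SE 0.197, adjusted p = 0.00521). The Acsm2 to Acsm3 FPKM ratio was 6.82, 9.01 and 8.12 in WT kidneys and 14.1, 6.94 and 13.8 in Trpm2-/- kidneys, which overlap (log2 difference 0.48, exact permutation p = 0.3, adjusted p = 0.4), so that a larger fall of Acsm3 than of Acsm2 was not shown either.

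Exons of Acsm3 share 1962 bases with Eri2, a gene on the opposite strand, and 30.95% of the 75-base windows of Acsm3 transcripts occur in Eri2. Whether reads were counted by strand is not given in the sources used here, so reads of the pair may be mixed. Eri2, an exonuclease gene, had 90, 87 and 94 counts in WT kidneys and 100, 107 and 162 in Trpm2-/- kidneys (log2 fold change 0.48, SE 0.250, adjusted p = 0.249), while Acsm3 had 536, 490 and 458 counts and 211, 239 and 157. Bdh1 shares 533 exon bases with Gm15743, which had at most 16 counts, and Oxct1 shares 467 with BC037032, which had at most 23, both on the opposite strand. These counts were small beside the lowest of Bdh1, 199, and of Oxct1, 1684. The other 5 genes share no exon base.

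By mean FPKM the genotypes differed only in the order of Acat1 and Oxct1 and of Bdh2 and Acsm1. The ranges of both pairs overlapped in WT kidneys, and the order was not tested. In WT kidneys Acat1 and Oxct1 were highest with overlapping ranges, followed by Acsm2, Bdh2 and Acsm1, of which neighbours overlapped, and then, each apart from the next, by Abat, Bdh1 and Acsm3. In Trpm2-/- kidneys the ranges of Oxct1, Acat1, Acsm2 and Acsm1 formed a chain of overlapping neighbours, followed by Bdh2, Abat and Bdh1, and Bdh1 overlapped Acsm3. The Acsm2 to Acat1 FPKM ratio, chosen after its values were seen and given without a test, was 0.558, 0.609 and 0.471 in WT kidneys and 1.19, 0.805 and 0.744 in Trpm2-/- kidneys. Acsm2 was thus well below Acat1 in all WT kidneys and closer to its level in Trpm2-/- kidneys. For Acsm1 to Bdh2, chosen in the same way, the ratios were 1.09, 0.986 and 0.593 in WT kidneys and 1.91, 1.21 and 1.14 in Trpm2-/- kidneys, again without overlap.

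The genes that the kidneys hold at a level parallel to each of the 8 were looked up among 12657 genes by the same root mean square difference over 6 kidneys. The nearest 2 were Bhmt2 (0.120) and Haao (0.139) for Bdh1, Kmo (0.0817) and Slc22a18 (0.0841) for Bdh2, Mdh1 (0.0619) and Shmt2 (0.0744) for Oxct1, and Sardh (0.0693) and Gsta2 (0.0761) for Acat1. Glud1 (0.0907) was near Acsm1, and the nearest 2 were Sucla2 (0.0772) and Aldh6a1 (0.0831) for Acsm2, Klf1 (0.10) and Ptgr1 (0.152) for Acsm3, and Cryl1 (0.0906) and Pdk2 (0.0933) for Abat. Mdh1 is a malate dehydrogenase and Sucla2 a subunit of a succinyl-CoA synthetase, Bhmt2 and Sardh act on methyl donors, and Kmo and Haao act in tryptophan breakdown.

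These 8 genes did not stand alone in the tubule. The 13 proximal tubule markers, transporters and enzymes such as Slc34a1, Slc22a6, Lrp2 and Cubn, were all lower at an adjusted p under 0.05, with log2 fold changes from -2.73 (Slc34a1, a phosphate transporter) to -0.76 (Lrp2, the endocytic receptor megalin) and a median of -1.60. Their summed level was 4181 to 5586 CPM in WT kidneys and 1184 to 1916 CPM in Trpm2-/- kidneys, or 31.4% of the WT mean, and none of these markers was at 0. In RNA of kidney tissue, fewer proximal tubule cells and less RNA of these genes per cell cannot be told apart.

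**Figure D2:**
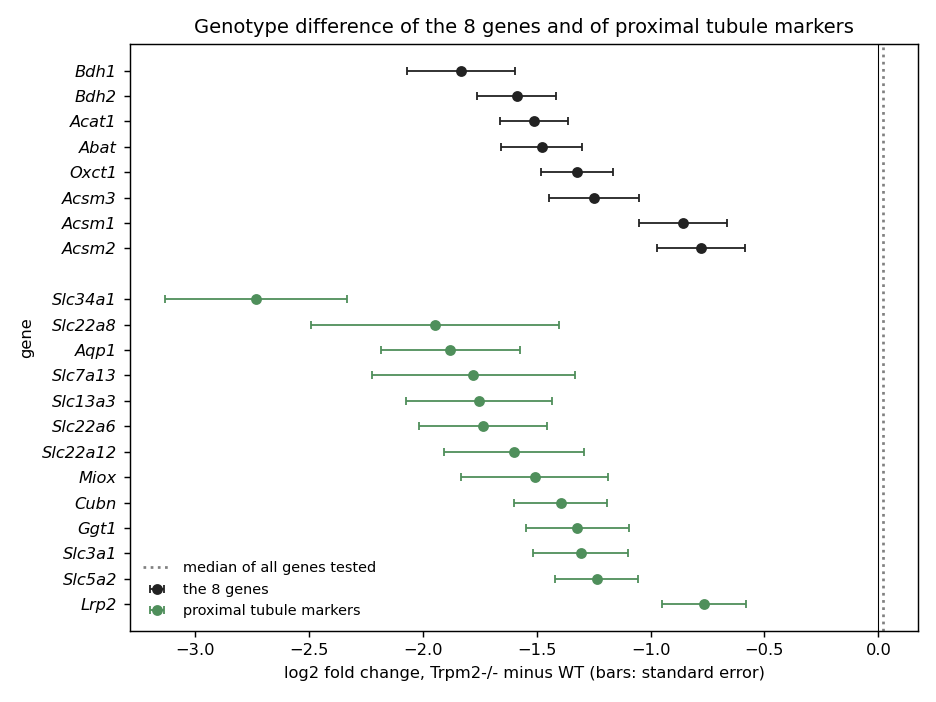
Log2 fold change (x axis, Trpm2-/- minus WT, bars the standard error) of the 8 genes (black) and of 13 proximal tubule markers (green); the dotted line is the median of all genes tested, 0.02. The 8 genes, from -1.83 to -0.78, lie within the span of the markers, from -2.73 to -0.76.

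Relative to the WT mean, the marker sum was 28.1%, 25.2% and 40.8% in Trpm2-/- kidneys 1, 2 and 4. In the same order Oxct1 CPM stood at 38.9%, 35.0% and 46.0% of its WT mean, Acat1 at 34.0%, 31.2% and 40.0%, and Bdh2 at 31.9%, 31.7% and 36.2%. Bdh1 stood at 19.3%, 27.5% and 37.4%, Abat at 42.9%, 27.5% and 37.3%, and Acsm3 at 41.8%, 52.8% and 31.7%. Acsm2 stood at 74.3%, 46.1% and 54.7%, and Acsm1 at 71.7%, 45.2% and 48.6%. Acsm1, Acsm2 and Oxct1 thus lay above the markers in each Trpm2-/- kidney, and the other genes lay on either side of them. Among WT kidneys, kidney 1 was lowest for 6 of the 8 genes and kidney 3 highest for 5, and the marker sum too was lowest in kidney 1 (89.1%) and highest in kidney 3 (119%).

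With libraries scaled by the marker sum in place of the whole library, which raised the median log2 fold change of all genes by 1.71, 6 of the 8 genes did not pass the test. Their log2 fold changes were then -0.16 for Bdh1, 0.14 for Bdh2, 0.37 for Oxct1, 0.18 for Acat1, 0.22 for Abat and 0.50 for Acsm3, with standard errors of 0.325 to 0.348 and adjusted p from 0.140 to 0.698. Acsm1 and Acsm2 were higher on that scale, by 0.84 (SE 0.333, adjusted p = 0.0129) and 0.92 (SE 0.351, adjusted p = 0.00987), where 93.0% of all genes tested were higher and 0.266% lower. They thus fell less than the marker sum and stood above it like most genes of the kidney, while Lrp2, 1 of the markers, fell by 0.76 with whole libraries, which is no more than they did. Without Slc34a1 among the markers, an alternative chosen after seeing the data, Acsm1 and Acsm2 stood at 0.64 (SE 0.303, adjusted p = 0.0390) and 0.72 (SE 0.323, adjusted p = 0.0296), where 90.1% of all genes were higher and 0.398% lower, and the other 6 genes lay between -0.36 and 0.29 with none passing.

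**Figure D3:**
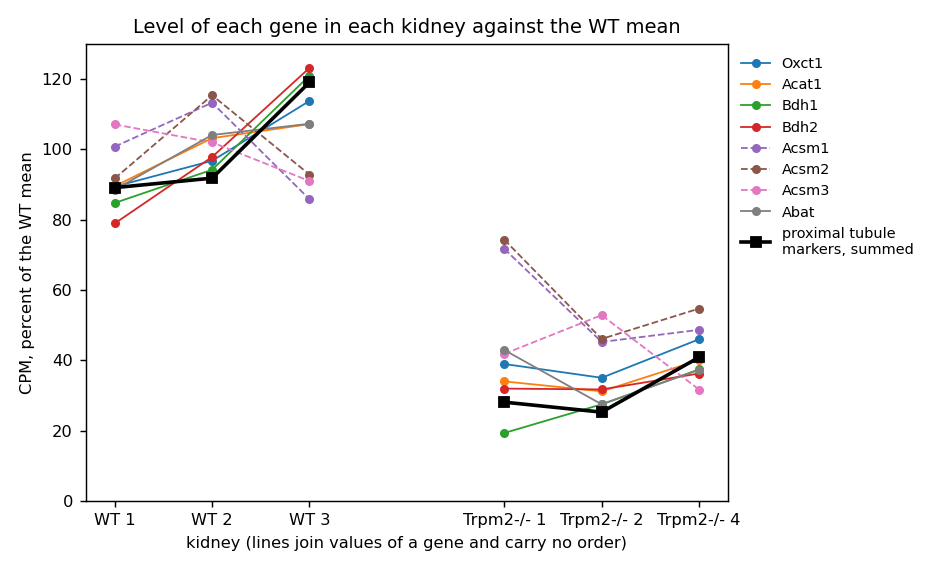
CPM of the 8 genes (colours, Acsm genes dashed) and of the summed proximal tubule markers (black squares) in each kidney, as a percentage of the WT mean; lines join the values of a gene. In the Trpm2-/- kidneys Acsm1 and Acsm2 lie above the marker sum, which was 25.2 to 40.8%, and Acsm3 is above it in kidneys 1 and 2 and below it in kidney 4.

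Markers of other compartments moved less evenly. All 8 tubular injury genes had log2 fold changes above 0, and 2 of the 8, Krt20 and Sox9, were higher at an adjusted p under 0.05. Their sum was 17010 to 18880 CPM in WT kidneys and 18860 to 26980 CPM in Trpm2-/- kidneys. Most of that sum was Spp1, with a mean of 12590 CPM in WT kidneys and a log2 fold change of 0.23 (adjusted p = 0.561). Markers of podocytes, endothelium, fibroblasts and leukocytes had 0 genes at an adjusted p under 0.05 by edgeR, although 3 podocyte genes and 1 leukocyte gene were higher at the study's threshold. Of the markers of thick ascending limb and distal tubule 1 of 5 tested was lower, and of those of collecting duct 2 of 6. The former had all 5 log2 fold changes below 0 and a sum at 42.3% of the WT mean. That sum overlapped between groups, with 1088 to 2378 CPM in WT and 394 to 1184 CPM in Trpm2-/- kidneys. The collecting duct sum was 1252 to 1548 CPM in WT and 759 to 884 CPM in Trpm2-/- kidneys, with 4 log2 fold changes below 0 and 2 above. Of 5 hepatocyte markers 3 were lower, and all 5 summed to 263 to 538 CPM in WT and 95.1 to 126 CPM in Trpm2-/- kidneys. The largest part in WT kidneys was Cyp2e1, with a mean of 256 CPM. Alb had only 18, 20 and 22 counts in WT and 8, 14 and 1 in Trpm2-/- kidneys. Urothelial markers stood at 49.2 CPM in WT kidney 1 and at no more than 12.0 CPM in the others. Of 5 RNAs retained in the nucleus 2 rose, Malat1 and Kcnq1ot1, while Meg3 and Snhg11 had log2 fold changes of 2.17 and 0.37 and Neat1 -0.18, without passing. The part of these in the results was not tested.

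Of 64 further genes of the neighbouring pathways, 54 were tested, and 23 were lower at an adjusted p under 0.05. Over all genes tested 7.28% were lower and 4.74% higher, the shares to set beside this count and those of each list. The median log2 fold change was -0.51 over the 54 and 0.02 over all genes tested. Without WT kidney 3 the count was 15. With the replicate number as a block, which compares only kidneys 1 and 2 of each genotype, it was 14. By edgeR 0 were higher, with 4 at an unadjusted p under 0.05, and DESeq2 called 1. Among ketone body genes 6 of 11 tested were lower. Slc5a8, a sodium-coupled carrier that takes lactate, butyrate and ketone bodies back from the filtrate, went from 17.2 ± 3.02 to 5.02 ± 0.506 FPKM (SD, n = 3 each; log2 fold change -1.79, SE 0.162, adjusted p = 0.00126). Its relative Slc5a12 fell by 1.23 on the log2 scale (adjusted p = 0.0382). Aacs, which loads acetoacetate with CoA in the cytosol for lipid synthesis, fell by 1.11, Acat2, the cytosolic thiolase, by 0.80, and Hmgcs1, of the sterol pathway, by 0.66 (adjusted p = 0.00150, 0.0134 and 0.0304). Of the Acat2 windows 33.93% occur in other genes, so that its count is uncertain.

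The monocarboxylate transporters Slc16a1, Slc16a7 and Slc16a6 had log2 fold changes of 0.27, -0.33 and -0.08 with overlapping groups.

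In the butanoate pathway 7 of 12 genes tested were lower. Acadm, the medium-chain acyl-CoA dehydrogenase that takes over the product of the Acsm enzymes, had the largest fall of the list, from 145 ± 17.2 to 57.9 ± 3.31 FPKM (SD, n = 3 each; log2 fold change -1.34, SE 0.148, adjusted p = 0.00150). Echs1 and Acads, of the same oxidation spiral, fell by 1.02 and 0.77 (adjusted p = 0.00380 and 0.00457). Acsm5, the first gene of the row on chromosome 7, fell by 1.23 (SE 0.195, adjusted p = 0.00537), from 5.72 ± 0.351 to 2.46 ± 0.565 FPKM. Acsm4 was too low to be tested, so that of the 5 Acsm genes the 4 tested were lower.

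Among GABA genes 4 of 6 tested were lower, with Aldh5a1 also in the butanoate count. Aldh5a1, which oxidises the succinate semialdehyde that Abat makes, fell by 1.12 (adjusted p = 0.00150), Akr7a5, which reduces it, by 1.24 (adjusted p = 0.00292), the GABA carrier Slc6a13 by 1.30 (adjusted p = 0.00482) and Aldh9a1, which makes GABA from its aldehyde, by 0.89 (adjusted p = 0.00596). Slc6a12, another carrier, had a log2 fold change of -1.29 at 0.543 FPKM in WT kidneys and did not pass (adjusted p = 0.364). Of the 3 glycine conjugation genes tested, Glyat and Keg1, acyltransferases that can follow the Acsm enzymes, fell by 0.70 and 0.87 (adjusted p = 0.0206 and 0.00947), and Gm4952 had 0.45 (adjusted p = 0.536).

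The acyl-CoA synthetase list, which counts Acsm5 again, was less uniform, with 5 of 15 tested lower and a median of -0.17. Acss2, the cytosolic acetyl-CoA synthetase, fell by 1.17, the fatty acid transport proteins Slc27a2 and Slc27a1 by 0.97 and 0.61, and Acsf3, the malonyl-CoA synthetase, by 0.60 (adjusted p = 0.00402, 0.00774, 0.0154 and 0.0164). The long-chain synthetases Acsl1, Acsl3 and Acsl5 had -0.32, -0.17 and -0.14, and Acsl4 had 0.74, with none passing. Acsbg1, at 0.652 FPKM in WT kidneys and 1.38 in Trpm2-/- kidneys, was higher at the study's threshold (log2 fold change 1.06) and not after adjustment (adjusted p = 0.0570).

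Of 9 regulators of fatty acid and ketone body genes tested, 1 was lower, the mitochondrial deacetylase Sirt3, by 0.93 (adjusted p = 0.00333). That count is near the share over all genes tested, of which 7.28% were lower. The nuclear receptors Hnf4a, Esrra and Rxra had -0.49, -0.43 and -0.50 with separate groups and adjusted p of 0.135, 0.112 and 0.158. Ppara, the receptor that drives fatty acid oxidation and ketone body formation in fasting, had a log2 fold change of 0.98 with overlapping groups (adjusted p = 0.146).

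**Figure D4:**
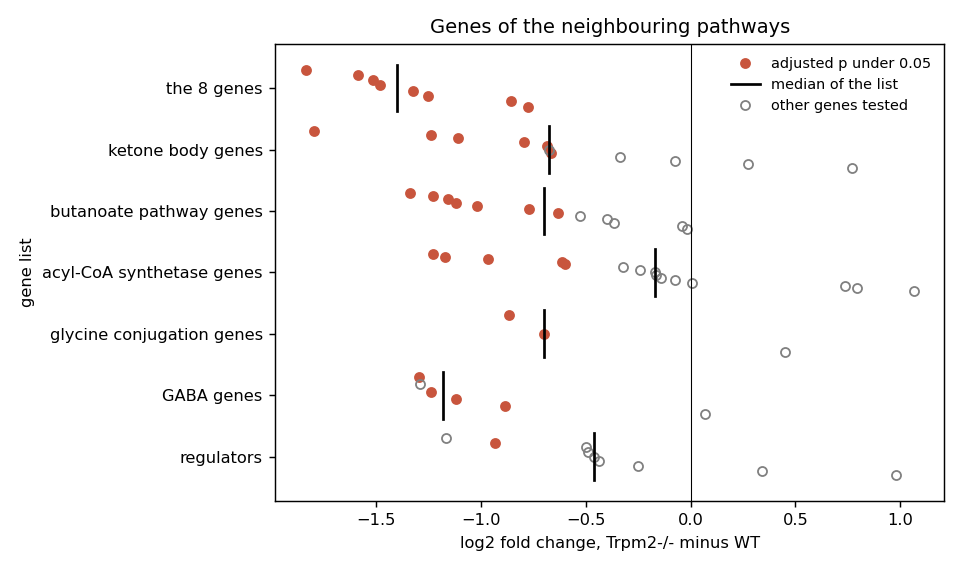
Log2 fold change (Trpm2-/- minus WT) of the 8 genes and of every gene tested in 6 related lists; filled points have an adjusted p under 0.05, open points do not, and black lines are list medians. Filled points all lie below 0, and the acyl-CoA synthetase list, with a median of -0.17, lies nearest to 0.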

How the data were processed

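RNA of kidney tissue was sequenced. Per the labels, the submitters' processing notes list HISAT2, StringTie and mm9, with versions not given in the sources used here. The authors deposited 2 tables of 54532 genes, with unnormalized read counts and with FPKM. Positions in the tables matched the GENCODE mouse release 21 annotation (GRCm38) for 98.3% of 54409 shared identifiers and for all 8 genes, and are printed as in the tables.

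Genes with filterByExpr defaults (15816) were tested in edgeR 4.0.16 (R 4.3.3) with TMM scaling, the two-sided quasi-likelihood test on genotype and Benjamini-Hochberg adjustment over all genes. The standard error of a log2 fold change is its size over the root of F. FPKM ratios were compared by exact permutation. The scripts were tested on simulated data. Mice are taken as replicates from the labels, with 3 per genotype, and intervals of counting alone were not used.

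Named pathway genes are those with the 5 smallest p per list, some of which are not reported here, and Slc5a12, Acsm4, Acsbg1 and the Slc16 and Acsl genes were added after their values were seen. The members and lists were chosen with earlier results of these data known. Alternatives were other scalings and filters, DESeq2 1.42.0, limma 3.58.1 on counts and on log2(FPKM + 1) or log2(FPKM + 0.1), leaving out mitochondrial genes or 1 kidney, and a replicate block.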

Additional observations from a re-analysis of the deposited data

How the results depend on the processing

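With 3 mice per genotype, falls as small as those of Acsm1 and Acsm2 sit near the threshold. In all 17 alternatives other than marker scaling, the log2 fold change of each of the 8 genes stayed below 0, and 6 genes kept their call. Members at an adjusted p under 0.05 numbered 6 to 8 when 1 kidney was left out and 7 to 8 otherwise. At the study's threshold they numbered 6 to 7 and 5 to 6. Pathway genes called lower numbered 23, from 15 (without WT replicate 3) to 23 when 1 kidney was left out and 14 with the replicate block, and those called higher 0, with up to 3 when 1 kidney was left out, 3 without a filter on low counts, 1 by DESeq2 and 1 with the block. With the block Acsm2 had an adjusted p of 0.0959, and over all genes 661 were lower and 341 higher, against 1152 and 750. Same-numbered WT and Trpm2-/- kidneys deviated with r = 0.0641 and -0.01 over 15816 genes, so the numbers were not taken as pairs. Without WT replicate 3, 470 genes were lower and 160 higher.

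Scaling by proximal tubule markers left 0 members lower by either call and 2 higher, and 0 pathway genes lower and 42 of 54 higher, where 14703 of all 15816 genes were higher, and without Slc34a1 0 members lower, 2 higher, 0 pathway genes lower and 37 higher, where 14243 of all genes were higher. Nearly every gene was thus called higher on these scales. The reversed log2 fold changes were 0.14 for Bdh2, 0.37 for Oxct1, 0.18 for Acat1, 0.84 for Acsm1, 0.92 for Acsm2, 0.50 for Acsm3 and 0.22 for Abat, and without Slc34a1 0.17 for Oxct1, 0.64 for Acsm1, 0.72 for Acsm2, 0.29 for Acsm3 and 0.0175 for Abat. These follow from the scale, which moved the median of all genes by 1.71 and 1.5. No count or FPKM value here tells loss of tubule cells from a lower level per cell.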
